A study of Homo sapiens and Mus musculus with 9 samples.

Results

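The genes described here carry glucose into the cell and break it down: SLC2A1, the glucose transporter of the cell membrane, and the glycolysis enzymes ALDOA, TPI1, GAPDH, PGK1, ENO1, PKM and LDHA. The deposited lists give places on RNA where sequenced fragments piled up into peaks, in a study of the pregnane X receptor (PXR, gene NR1I2) by enhanced UV crosslinking and immunoprecipitation sequencing (eCLIP). A peak belonged to a gene when its summit, the base of highest pile-up, lay in the gene's span in the RefSeq table of GRCh38 (hg38). By that rule 49 of the 3706 peaks in the 3 human lists were in the 8 genes: 4 of 46 in the KO-named LS174T list, 10 of 1557 in the list labelled HepG2 and 35 of 2103 in the WT-named LS174T list.

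Glycolysis turns glucose into pyruvate in the cytosol, and LDHA reduces pyruvate to lactate, which restores the NAD+ that GAPDH uses. Tumour cell lines usually run this pathway at a high rate, and its messenger RNAs are among the abundant ones of such cells. PXR is a ligand-activated transcription factor of liver and intestine, switched on by many drugs and by bile acids. In eCLIP, UV light fixes proteins to the RNA they touch, RNase trims the RNA, and an antibody pulls down the protein with its fragments.

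LS174T is a human colorectal adenocarcinoma line, grown as PXR knockout and wild-type cells, and HepG2 is a human hepatocellular carcinoma line. Cells were crosslinked at 254 nm with 400 mJ/cm2. The LS174T immunoprecipitates used an antibody to PXR and the 2 HepG2 libraries an antibody to the HA tag, and no clone of the knockout is named in the sources used here. The names of the LS174T lists read PXR knockout and wild type, whereas the record ties the KO-named list to the wild-type PXR immunoprecipitate and the WT-named list to the wild-type input, so no direction between genotypes, or between precipitate and input, is drawn from them.

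Each list is a single set of peaks with no replicate list: each LS174T list belongs to 1 library, and the list labelled HepG2 gives no values for its 2 libraries apart. The spread between replicates is therefore unknown, and no test was run. Reads at each summit were worked out from the deposited fold enrichment and p-value, with a single solution for each of the 49 peaks. Intervals are exact at 95% and cover counting error only, since the reads may include PCR copies. Median reads over all peaks were 19 in the KO-named list, 9 in the list labelled HepG2 and 11 in the WT-named list. Markers of hepatocytes, among them ALB and APOA1, had a peak in 0 of 12 genes in each of the 3 lists. Luminal breast epithelium markers had a peak in 0 of 12 in the KO-named list, 6 of 12 in the list labelled HepG2 (GATA3 reached 47 reads) and 3 of 12 in the WT-named list. Colon epithelium markers had a peak in 0, 2 and 8 of 12 in the same order, and fibroblast and blood markers in 0 of 6 each in every list. Over all nuclear protein-coding and lncRNA genes the shares with a peak were 0.073%, 3.34% and 4.24% in the same order. A count of 0 among so few markers is near them. Luminal breast markers (50% in the list labelled HepG2, 25% in the WT-named list) and colon markers (16.7% and 66.7%) stood above these shares. The label HepG2 has no hepatocyte marker peak behind it here, and the part of cell identity in the differences between lists was not tested.

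The peaks of the WT-named list reached close to the annotated first base of SLC2A1, PGK1 and ENO1, and the sequence there is shown because these are the places where a peak and a printed RefSeq sequence meet. Each line gives 30 bases before and 30 bases from the annotated start on the gene's strand (GRCh38.p14), with the bases inside the WT-named peak in capitals. The windows are chr1:42958839-42958898 on the minus strand for SLC2A1, chrX:78104218-78104277 on the plus strand for PGK1 and chr1:8878657-8878716 on the minus strand for ENO1.
SLC2A1: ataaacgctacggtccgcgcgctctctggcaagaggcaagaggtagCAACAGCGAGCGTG
PGK1: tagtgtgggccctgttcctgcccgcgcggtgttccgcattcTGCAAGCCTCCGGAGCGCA
ENO1: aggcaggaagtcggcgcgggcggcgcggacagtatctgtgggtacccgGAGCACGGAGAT
The peaks began at base 17 of SLC2A1, base 12 of PGK1 and base 19 of ENO1, counted from 1 at the annotated start. G and C made up 60%, 66.7% and 68.3% of the 3 windows in that order, against a median of 60% over 35116 such windows. The reads were extended to 200 bp in peak calling, so an edge is no exact end of a fragment.

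SLC2A1 (chromosome 1, 42925353 to 42958868, minus strand) carried its deepest peak in every list at its 5′ end. That site held 9 reads in the KO-named list, 17 reads in the list labelled HepG2 and 100 reads in the WT-named list. Its summits lay 191, 192 and 197 bp from the start of the gene, in the same order, so the 3 lists placed it within a few bases. The WT-named peak, 42958501 to 42958852, had a deposited fold enrichment of 28.7, the highest of the 49 peaks. Of the strand's reads in the 10000 bp window around it, the summit held 81.8% in the KO-named list (9 of 11, interval 48.2 to 97.7%), 39.5% in the list labelled HepG2 (17 of 43, interval 25.0 to 55.6%) and 79.4% in the WT-named list (100 of 126, interval 71.2 to 86.1%). Further peaks of SLC2A1 stood in the WT-named list alone: 1 with 27 reads near the middle of the gene and 4 with 40 to 45 reads over its 3′-most 20%.

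ALDOA (chromosome 16, 30064279 to 30070420, plus strand), the aldolase that splits the fructose bisphosphate of glycolysis, had 1 peak in the KO-named list, 3 peaks in the list labelled HepG2 and 5 peaks in the WT-named list. The KO-named peak held 24 reads, the peaks of the list labelled HepG2 held 23, 31 and 44 reads, and the WT-named peaks held 68, 40, 51, 82 and 95 reads from 5′ to 3′. In the KO-named and WT-named lists the deepest stack was at the 3′ end of the gene with summits 7 bp apart, and the list labelled HepG2 had 2 separate peaks in that place. The WT-named peak there, 30069865 to 30070470, was 606 bp wide, against a median width of 213 bp in its list, and ran 50 bp past the annotated end of the gene. The whole of ALDOA also lies in the span of the protein-coding gene LOC112694756 on the same strand, so the reads cannot be told apart between them.

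TPI1 (chromosome 12, 6867420 to 6870948, plus strand), which interconverts the triose phosphates, had no peak in the KO-named list and was the member with none in the list labelled HepG2. The WT-named list gave it 24 reads at a site 139 bp after a RefSeq start and 26 reads at a site 134 bp before the end of the gene. Both stacks were well under the WT-named maxima of GAPDH and SLC2A1. The lists hold only called peaks, so the RNA level of TPI1 in the other lists is not known.

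GAPDH (chromosome 12, 6534517 to 6538371, plus strand), which oxidises glyceraldehyde phosphate, held the deepest member stack in the KO-named and WT-named lists. It had 33 and 24 reads in the KO-named list, 38 reads in the list labelled HepG2, and 87, 251 and 122 reads in the WT-named list, from 5′ to 3′. The stack of 251 reads at 6537641 to 6538078 ranked 12th among 1825 WT-named peaks in protein-coding genes, and that of 33 reads ranked 3rd among 23 in the KO-named list. The first site began at base 6536944 in both LS174T lists, and it was the deeper of the 2 in the KO-named list, whereas the second site was the deepest in the WT-named list. The third WT-named peak had its summit 26 bp before the end of the gene and ran 123 bp past it. The GAPDH summit nearest to the 5′ end of the span, in any list, was 2642 bp from it.

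PGK1 (chromosome X, 78104248 to 78129295, plus strand), which makes the first ATP of the pathway, had no KO-named peak. At its 5′ end the list labelled HepG2 held 9 reads and the WT-named list 7 reads, with summits 156 and 125 bp from the start. This was the member site with more reads in the list labelled HepG2 than in the WT-named list, and the intervals of the reads overlapped (4.12 to 17.1 against 2.81 to 14.4). The WT-named list had 3 further PGK1 peaks with 23, 22 and 18 reads, of which the last 2 lay in the 3′-most 20% of the gene.

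ENO1 (chromosome 1, 8861000 to 8878686, minus strand), the enolase that makes phosphoenolpyruvate, had 7 WT-named peaks. Of the 1624 genes with a WT-named peak 0 had more, and 5, ENO1 included, had as many. The ENO1 peaks held 25, 37, 42, 62, 45, 44 and 52 reads from 5′ to 3′. The list labelled HepG2 held 10 reads at the first of these sites and 12 reads at the last, with summits 56 and 4 bp from the WT-named summits. The ends of the gene were thus shared between both lists, and the 5 sites between them had a peak in the WT-named list alone. No KO-named peak lay in ENO1.

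PKM (chromosome 15, 72199029 to 72231591, minus strand), the pyruvate kinase, had no KO-named peak, 1 peak in the list labelled HepG2 with 11 reads and 6 WT-named peaks with 22, 33, 46, 35, 32 and 41 reads from 5′ to 3′. The peak shared by both lists was the first of these, far inside the gene at 12670 and 12678 bp from its start. The last WT-named peak was 779 bp wide, the widest of the member peaks, and ran 123 bp past the annotated end.

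LDHA (chromosome 11, 18394563 to 18408425, plus strand) had no KO-named peak, 8 reads at a single peak in the list labelled HepG2, and 21 and 32 reads at 2 WT-named peaks. The peak of the list labelled HepG2 overlapped the second WT-named peak near the 3′ end, where the summits were 336 bp apart. It was the shallowest of the 10 member peaks in its list.

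**Figure D1:**
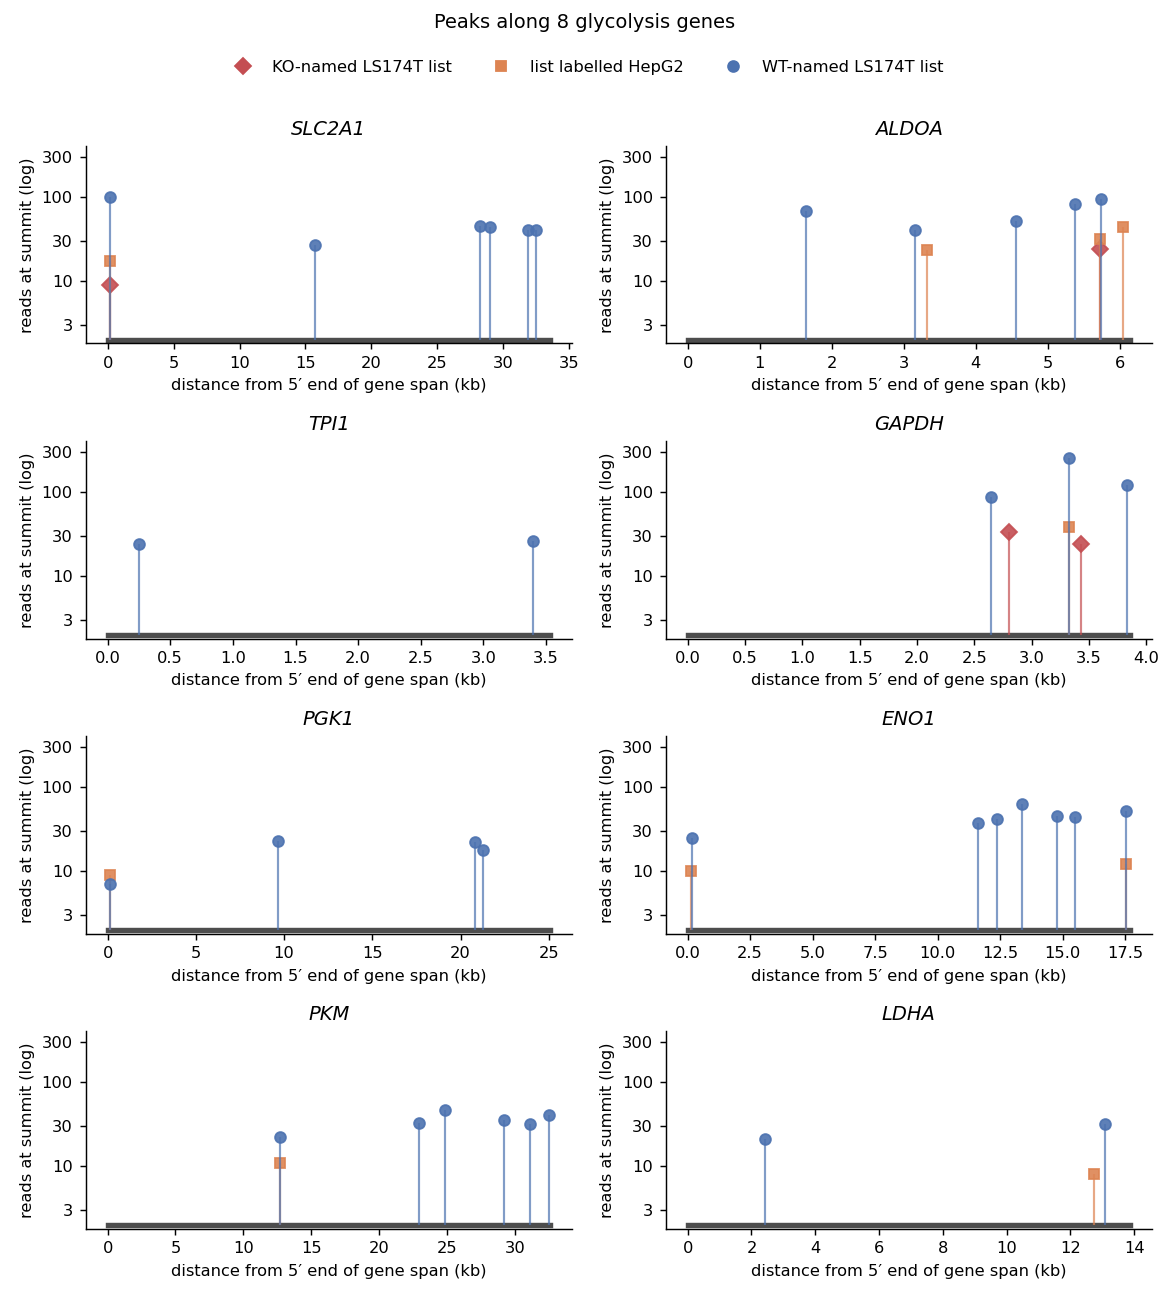
Reads at each peak summit (log axis) against the distance of the summit from the 5′ end of the gene span in kb, for the 8 genes, with diamonds for the KO-named LS174T list, squares for the list labelled HepG2 and circles for the WT-named LS174T list. GAPDH peaks sit in the 3′ part of the gene in every list, and ENO1, PKM and SLC2A1 carry runs of WT-named peaks toward the 3′ end.

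Every one of the 49 member peaks lay on the strand of its gene. Over all peaks in protein-coding genes of known strand the share was 90% in the KO-named list, 84.5% in the list labelled HepG2 and 92.3% in the WT-named list. By gene, 3 of the 8 members had a peak in the KO-named list, 7 of 8 in the list labelled HepG2 and 8 of 8 in the WT-named list. Over 38340 nuclear protein-coding and lncRNA genes the shares were 0.073%, 3.34% and 4.24% in the same order. The members were chosen with peaks in these lists already known, so their count against this background is a description.

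All 8 members had at least 2 WT-named peaks, as did 19.6% of the genes with a WT-named peak. In the list labelled HepG2, ALDOA and ENO1 were the 2 members of 7 with several peaks, beside 8.75% of its genes. GAPDH was the 1 of 3 in the KO-named list, beside 7.14%. Member stacks were deeper than is usual for the list in the WT-named list, with a median of 40 reads against 11 over all peaks in protein-coding genes. In the list labelled HepG2 the medians were 14.5 and 10 reads, and in the KO-named list 24 and 18 reads. A member summit nevertheless held a small part of the reads around it, with medians of 36.2% in the KO-named list, 27.8% in the list labelled HepG2 and 18.2% in the WT-named list, against 77.8%, 52.9% and 50% over all peaks in protein-coding genes. Several peaks of a gene can share a window, which lowers the share of each summit, so these medians do not measure reads outside peaks. ALDOA, 6142 bp long, had 5 WT-named peaks of 40 to 95 reads, each in a window of 535 or 536 reads. There no summit of the WT-named list held over 17.7% of its window. The part of peak number in the member medians was not tested. Some 5′ sites went the other way: SLC2A1 with 81.8% (KO-named) and 79.4% (WT-named), and PGK1 with 70% (WT-named) and 69.2% (labelled HepG2).

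The share of member peaks met in another list depends on the direction, since the lists hold 4 (KO-named), 10 (labelled HepG2) and 35 (WT-named) of them. No interval is given for these shares, since several of the peaks come from the same gene and are not independent. The members were chosen with their peaks known, so the shares are a description. All 4 KO-named member peaks shared at least 1 bp of the same strand with a WT-named peak, as did 95.7% of all KO-named peaks. All 10 member peaks of the list labelled HepG2 did so, against 38.5% of all its peaks. In turn 9 of the 35 WT-named member peaks, or 25.7%, met a peak of the list labelled HepG2, against 28.6% of all. A KO-named peak was met by 4 of 35, or 11.4%, against 2.14% of all. Between the KO-named list and the list labelled HepG2, 3 of 4 KO-named member peaks were shared, against 78.3% of all, which were 3 of the 10 of the list labelled HepG2, against 2.38% of all.

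Sharing went with depth over all peaks. Of all peaks of the list labelled HepG2 with 10 to 19 reads 43.7% met a WT-named peak, and of those with 20 to 49 reads 60.6% did, while the members at these depths were shared in 4 of 4 cases each. In the WT-named list 73.0% of all peaks with at least 50 reads met a peak of the list labelled HepG2, against 4 of the 10 members of that depth. The WT-named peaks of GAPDH with 87 and 122 reads, of ALDOA with 68, 51 and 82 reads and of ENO1 with 62 reads were members of at least 50 reads with no partner in the list labelled HepG2.

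Whether an unmatched member site could have been called was worked out where the list had a member peak within 5000 bp. The need was the reads that would have reached the lowest −log10 p on that strand of the list, given the window reads at the nearest such peak. Unmatched sites without such a peak were not assessed. In the list labelled HepG2 a stack needed 14 reads in GAPDH, 18 in ALDOA and 8 in ENO1. The WT-named reads scaled by the ratio of the window reads came to 19.8 and 27.7 for the unmatched GAPDH sites, 32.0, 23.5 and 37.8 for those of ALDOA and 10.5, 7.72 and 7.60 for the 3 ENO1 sites in reach. The scaled reads were under the need at 2 of these 8 sites, those of ENO1 with 45 and 44 WT-named reads. At the sites of at least 50 WT-named reads they were above it. In the KO-named list they were under it at 4 of 5, all in ALDOA, where 11 reads were needed. The exception was the third GAPDH site, with 18.5 scaled reads against a need of 14.

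At the sites shared by the LS174T lists, the KO-named list held fewer reads at each of 4, with the interval of the ratio below 1 at 4 of 4, as at 78.3% of the 23 shared pairs of peaks in protein-coding genes. The ratio of KO-named to WT-named reads was 0.0900 at SLC2A1 (interval 0.0400 to 0.178), 0.253 at the 3′ site of ALDOA (interval 0.154 to 0.399), 0.379 at the first GAPDH site (interval 0.246 to 0.572) and 0.0956 at the second GAPDH site (interval 0.0601 to 0.146). The 2 GAPDH intervals did not overlap, so within this RNA the ratio at the first site was higher than at the second beyond counting error. The summits were 162 and 106 bp apart at these 2 sites, so the stacks compared are not at the same base. Over those 23 pairs the median ratio was 0.280 (quartiles 0.105 and 0.525). The window reads of the mitochondrial rRNA RNR1 stood at 4101 in the KO-named and 86753 in the WT-named list, a ratio of 0.0473, and relative to it the 4 ratios became 1.90, 5.34, 8.02 and 2.02, all above 1, and the median of the 23 pairs became 5.92.

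Between the list labelled HepG2 and the WT-named list, the deepest peak of each of the 7 shared members held fewer reads in the list labelled HepG2. The ratio was 0.151 for GAPDH (38 against 251 reads, interval 0.105 to 0.214), 0.170 for SLC2A1 (17 against 100, interval 0.0953 to 0.286), 0.194 for ENO1 (12 against 62, interval 0.0949 to 0.363) and 0.239 for PKM (11 against 46, interval 0.112 to 0.469). It was 0.250 for LDHA (8 against 32, interval 0.0995 to 0.554), 0.391 for PGK1 (9 against 23, interval 0.159 to 0.878) and 0.463 for ALDOA (44 against 95, interval 0.316 to 0.669). The interval lay below 1 in 7 of 7 members, and in 17.8% of the 506 protein-coding genes with a peak in both lists. The members were chosen with their peaks known and had deep WT-named stacks. The deepest of up to 7 WT-named peaks was set against that of 1 to 3 peaks in the list labelled HepG2. Both can lower the ratio, so the comparison with the 506 genes is a description. For ENO1, PKM and PGK1 the deepest peaks of both lists stood at different sites of the gene. The member median of 0.239 stood beside a median of 0.923 over those 506 genes (quartiles 0.571 and 1.41), of which 52.4% were below 1. The RNR1 window held 22128 reads in the list labelled HepG2, a ratio of 0.255 to the WT-named list. Relative to it the ratios were below 1 in 5 of 7 members, with the interval below 1 for GAPDH alone (0.594, interval 0.410 to 0.837) and above 1 for ALDOA alone (1.82, interval 1.24 to 2.62). On that scale the member median was 0.938, beside 3.62 over the 506 genes, of which 5.34% were below 1. The 2 lists differ in cell label and depth and, by the record, in being a precipitate and an input. No list measures an RNA level, and binding, RNA per cell and the share of cells that make an RNA cannot be told apart.

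Matched site by site, the members gave 10 overlapping pairs of peaks. Their summits were 4 to 336 bp apart, with 5 within 20 bp, and the median of 23 bp was close to the 24 bp over 466 pairs in protein-coding genes. The pairs within 20 bp were in SLC2A1 (5 bp), GAPDH (6 bp), PKM (8 bp), and at the 3′ ends of ENO1 (4 bp) and ALDOA (15 bp). The median ratio of reads over the 10 pairs was 0.363, and the interval lay below 1 in 8 of them, beside 19.5% of the 466 pairs. This too is a description, as the members were chosen with their peaks known. At PGK1 the site-matched ratio was 1.29 (interval 0.426 to 4.06) and at PKM 0.50 (interval 0.219 to 1.08), so these 2 sites did not differ beyond counting error.

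**Figure D2:**
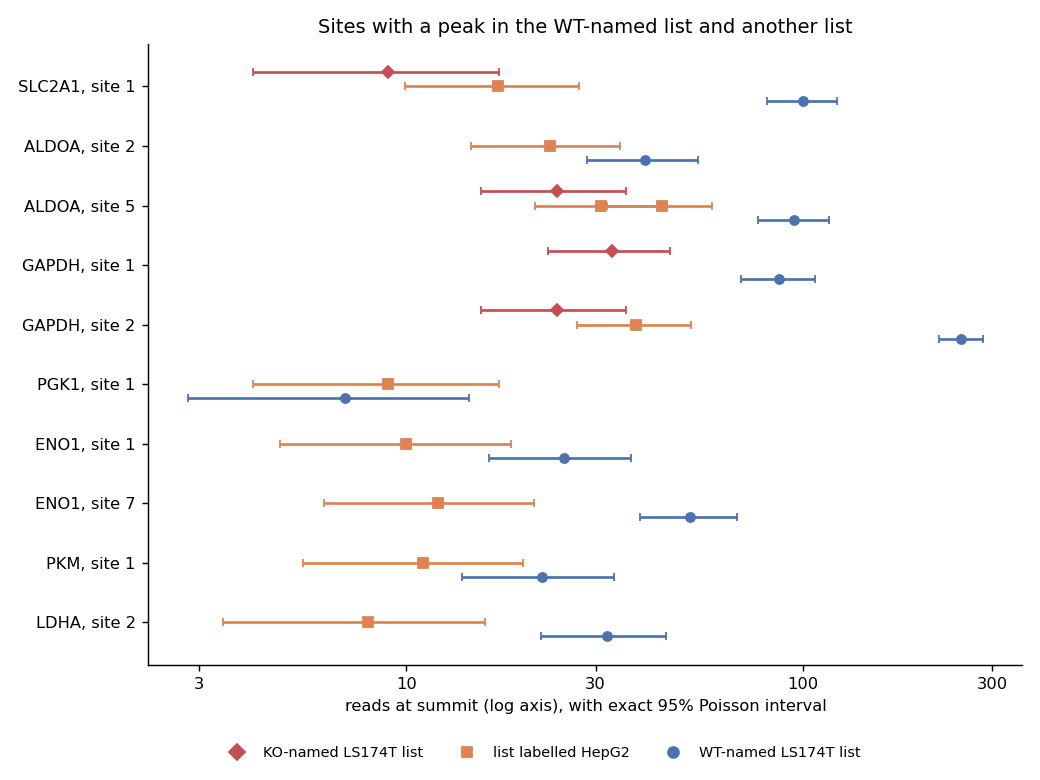
Reads at the summit (log axis) with exact 95% Poisson intervals, for the 10 member sites with a peak in the WT-named list and in at least 1 other list. Diamonds are the KO-named LS174T list, squares the list labelled HepG2 and circles the WT-named LS174T list, and sites are numbered from the 5′ end of the gene by the WT-named peaks. The second GAPDH site has 24, 38 and 251 reads in these lists, and at PGK1 the intervals overlap.

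By count of peaks, several of them from the same gene, member peaks gathered toward the 3′ end. In the 3′-most 20% of the gene span lay 2 of 4 KO-named, 5 of 10 and 18 of 35 WT-named member peaks (50%, 50% and 51.4%, the list labelled HepG2 in the middle). Over all sense-strand peaks of protein-coding genes, members included, that stretch held 38.9%, 19.9% and 27.5%, in the same order. At −log10 q of at least 5 the count in the list labelled HepG2 was 3 of 7. The first 20% of the span held 1 of 4, 3 of 10 and 5 of 35 member peaks, against 33.3%, 56% and 49.4% over all genes. GAPDH, ALDOA, TPI1, ENO1 and PKM each had a WT-named summit near the annotated end of the gene, 26, 399, 134, 158 and 51 bp before it in that order.

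Member peaks just after the start of the RNA were no more frequent in the WT-named list than over all genes, with 14.3% of them there against 19.6%. In that list 5 members had a summit at most 200 bp after a RefSeq start, namely SLC2A1 (197 bp), ENO1 (184 bp), ALDOA (165 bp), TPI1 (139 bp) and PGK1 (125 bp). SLC2A1, ENO1 and PGK1 had such a peak in the list labelled HepG2 too, and SLC2A1 in the KO-named list. These were 1 of 4 KO-named, 3 of 10 HepG2-labelled and 5 of 35 WT-named member peaks. Over all sense-strand peaks of protein-coding genes 11.1%, 19% and 19.6% lay as close to a start, in the same order. GAPDH, PKM and LDHA had none. The gene table gives spans without exons, so exon, intron and UTR were not assigned to any peak.

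**Figure D3:**
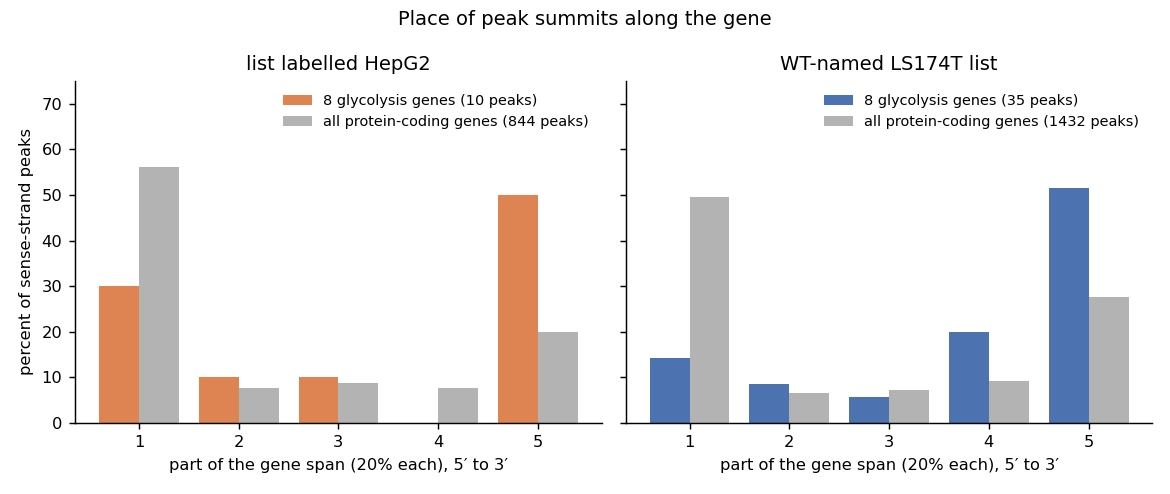
Percent of sense-strand peaks in 5 equal parts of the gene span from 5′ to 3′, with coloured bars for the 8 glycolysis genes and grey bars for all protein-coding genes, in the list labelled HepG2 (left) and the WT-named LS174T list (right). The last part holds 50% and 51.4% of the member peaks, and the first part holds 56% and 49.4% of the peaks of all genes.

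The rest of glycolysis had a peak in fewer of its genes than the 8 members, which were chosen with their peaks known. Of 20 further glycolysis genes 0 had a peak in the KO-named list, 1 in the list labelled HepG2 and 6 in the WT-named list (30%, against 4.24% of all genes). PFKL, a phosphofructokinase that sets the pace of the pathway, had 19 reads in the list labelled HepG2 and 15 reads in the WT-named list. Its 19 reads were above the maxima of SLC2A1, ENO1, PKM, PGK1 and LDHA in the list labelled HepG2. Peaks in the WT-named list alone were found for 5 others: GPI, the glucose phosphate isomerase (25 reads), LDHB, the partner subunit of LDHA (4 peaks of 11 to 14 reads), the isozymes ALDOC and ENO2 (13 reads each) and PFKFB3, which makes an activator of phosphofructokinase (10 reads). GPI was above the WT-named maximum of PGK1, 23 reads, and below that of TPI1, 26 reads.

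Glucose and lactate transport had a peak in 0 of 8 genes in the KO-named list, 1 of 8 in the list labelled HepG2 and 2 of 8 in the WT-named list. For this and the gene lists that follow, the shares over all genes were 0.073%, 3.34% and 4.24% in the same order. BSG, which chaperones lactate transporters to the membrane, had 14 reads in the list labelled HepG2 and peaks of 56, 29 and 18 reads in the WT-named list. The lactate exporter SLC16A3 had 19 reads in the WT-named list alone. Gluconeogenesis, the reverse route that hepatocytes run, had a peak in 0 of 8 genes in each of the 3 lists, which is near those shares.

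The pentose phosphate pathway, which branches off glycolysis and yields NADPH, had a peak in 0 of 7 genes in the KO-named list, 2 of 7 in the list labelled HepG2 and 4 of 7 in the WT-named list. TKT, the transketolase that links the pathway back to glycolysis, had 12 reads in the list labelled HepG2 and up to 21 in the WT-named list, and PGLS and PGD had 11 each in the WT-named list.

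Pyruvate dehydrogenase and the citric acid cycle, the mitochondrial route of pyruvate, had 0, 2 and 3 of 20 genes, in the order KO-named, HepG2 and WT-named. These were 0%, 10% and 15%, against 0.073%, 3.34% and 4.24% of all genes. The malate dehydrogenase MDH2 had 3 peaks of up to 15 reads in the list labelled HepG2 and 1 of 10 reads in the WT-named list. The isocitrate dehydrogenase IDH2 had 10 reads in the list labelled HepG2 alone, and the succinate dehydrogenase subunit SDHA had 5 reads in the WT-named list alone. At −log10 q of at least 5, or with at least 10 reads, the WT-named count of this route was 1 of 20, near the share over all genes.

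Glycogen and hexosamine genes had a peak in 0, 0 and 3 of 8, led by the glycogen phosphorylase PYGB with up to 44 reads in the WT-named list, followed by GFPT1 with 11 and UGP2 with 4. Hypoxia-induced genes outside glycolysis had 0, 0 and 4 of 8. In the WT-named list the angiogenic factor VEGFA had 4 peaks of 26 to 59 reads, NDRG1 4 peaks of 12 to 34 reads, the carbonic anhydrase CA9 15 reads and the prolyl hydroxylase EGLN3 8 reads. Low oxygen is known to raise the transcription of these genes and of many glycolysis genes.

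**Figure D4:**
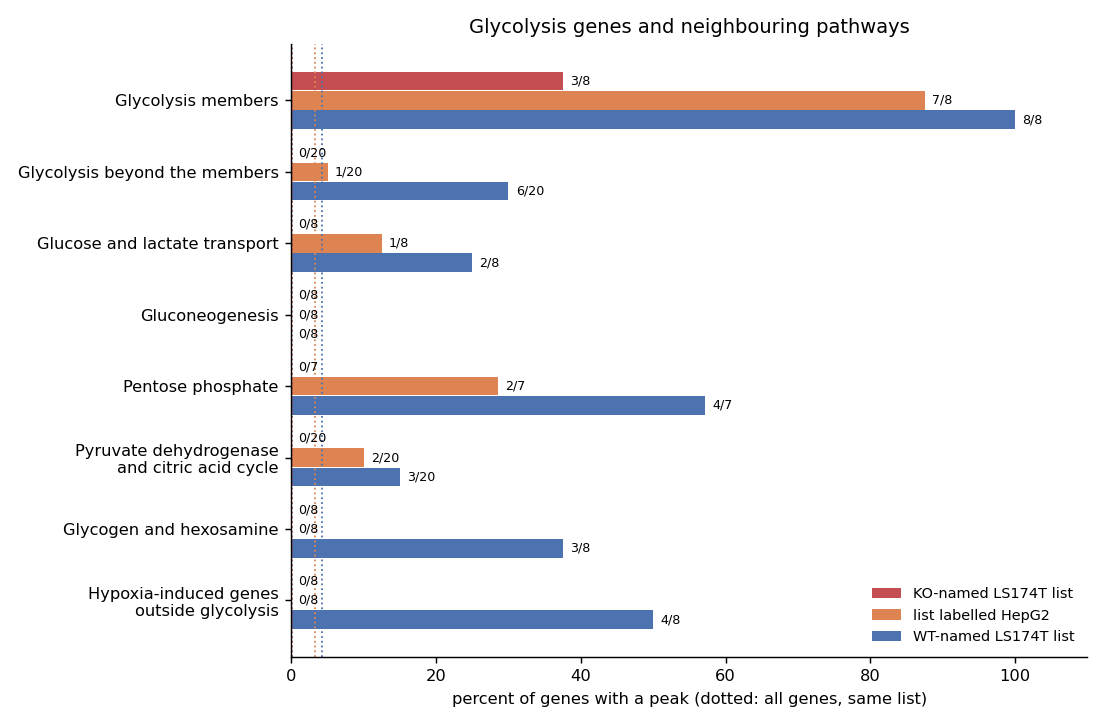
Percent of genes with a peak in the 8 glycolysis members and 7 neighbouring gene lists, for the KO-named LS174T list (top bar), the list labelled HepG2 (middle) and the WT-named LS174T list (bottom), with counts beside each bar. Dotted lines mark the share of all nuclear protein-coding and lncRNA genes with a peak in each list (0.073%, 3.34% and 4.24%). Gluconeogenesis has no peak in any list.

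Glycolysis genes have many processed copies in the genome, to which reads of the parent RNA can map. The RefSeq table held 88 such copies of the members by symbol, 65 of them of GAPDH and 0 of SLC2A1. How often processed copies of other genes had a peak was not worked out, so the counts that follow are a description. A peak had its summit in 1 copy in the KO-named list, 3 in the list labelled HepG2 and 15 in the WT-named list. Those peaks held 15 reads in the KO-named list, 5 to 7 reads in the list labelled HepG2 and 3 to 21 reads in the WT-named list, below the deepest peak of the parent gene in each list. The split of reads between parents and copies in mapping is uncertain.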

How the data were processed

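Each human list is a header-less peak table from cutadapt, BWA and MACS2 on hg38, per the submitters' processing notes; versions, settings and any pooling of the 2 HepG2 libraries are not stated there. The authors deposited per peak a fold enrichment (the ratio to local background), a score, and −log10 p and −log10 q values; strands were called separately, per the peak names in the files. The deposited score was the −log10 q times 10 without its decimals throughout.

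Reads n and background λ were solved from fold = (n + 1) / (λ + 1) and the Poisson tail p, with λ a multiple of 0.02 (200 bp extension in a 10000 bp window) and a p tolerance of 0.001. The solving was tested on simulated peaks built with the same formula and settings. That test checks the solving alone, and cannot show that the deposited values were made with these settings. Summits were placed in RefSeq spans (GRCh38.p14), strands taken from its promoter table. Lists were set side by side without a test, as each has no replicate. Every member, every pathway gene with a peak, and the 3 genes nearest in log2 reads to the 3 deepest members were to be named, of which some pathway genes are not reported here. The members and gene lists were chosen with earlier results of these data known. The mouse liver list was not used here. Python 3.11.15, NumPy, pandas and SciPy were used.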

Additional observations from a re-analysis of the deposited data

How the results depend on the processing

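Of 154 alternative values, 33 filtered a count of 0 and could not move. Of the other 121, 93 stayed within the counting interval or within 1.5 times the count. With summits within 100 bp as the measure of sharing, 2 of 4 KO-named member peaks were shared with 2 of 35 WT-named ones. Relative to RNR1, the KO-named over WT-named ratios turned above 1: 1.90 at SLC2A1, 5.34 at ALDOA, and 8.02 and 2.02 at the first and second GAPDH sites. The same scaling of the HepG2 over WT-named ratios, chosen after seeing the data, gave 1.82 for ALDOA, 1.53 for PGK1, 0.980 for LDHA, 0.938 for PKM, 0.759 for ENO1, 0.666 for SLC2A1 and 0.594 for GAPDH. By window reads the KO-named ratios were 0.106 at ALDOA and 0.152 at both GAPDH sites. With reads summed over the peaks of a gene, the HepG2 over WT-named ratio was 0.0574 for SLC2A1, 0.292 for ALDOA, 0.0826 for GAPDH, 0.129 for PGK1, 0.0717 for ENO1 and 0.0526 for PKM; such sums move with the number of peaks called. At the overlapping site, a comparison chosen after seeing the data, it turned to 1.29 for PGK1 and became 0.50 for PKM. At −log10 q of at least 5, HepG2 member peaks in the 3′-most 20% of the span numbered 3, HepG2 glucose and lactate transport genes 0, and WT-named citric acid cycle genes 1, which was also 1 with at least 10 reads. Beyond these constructions the cause of the changes was not tested. No paired analysis was possible because each list stands for its group alone, with no replicate list. In the KO-named list 1 of 4 member peaks had under 10 reads. The scaled reads fell short of those a call needs at 4 of the 5 unmatched sites assessed. In the list labelled HepG2 these counts were 2 of 10 and 2 of 8. Unmatched sites with no member peak of the same list within 5000 bp were not assessed. The part of depth in the unmatched sites was not tested.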

Other observations

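Genes outside these pathways with the most similar reads at their deepest peak over the 3 lists were sought among 16 protein-coding genes with a peak in each, by the distance of log2 reads. For GAPDH the nearest was the ribosomal protein gene RPLP1, with 33 reads in the KO-named list, 46 in the list labelled HepG2 and 118 in the WT-named list (distance 1.12), followed by the actin-binding TMSB10 with 27, 17 and 173 reads (distance 1.31). For SLC2A1 it was LRRC75A with 11, 11 and 96 reads (distance 0.69), then the ribosomal protein gene RPS19 with 11, 19 and 31 reads (distance 1.72) and TMSB10 (distance 1.77). For ALDOA, LOC112694756 has distance 0 because it spans the same peaks and was also the third for GAPDH (distance 1.49), and RPLP1 (distance 0.56) and the keratin gene KRT19 (14, 72 and 146 reads, distance 1.22) followed.

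The processed copy GAPDHP40 (chromosome 5) was the copy with a peak in all 3 human lists. It held 15 of 15 window reads in the KO-named list, 5 of 5 in the list labelled HepG2 and 21 of 22 in the WT-named list, so nearly all reads of its surroundings stood at a single site, unlike at GAPDH itself.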
